A study of Homo sapiens with 65 samples.

Results

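The genes described here are 9 of the 11 protein-coding members of the HOXA cluster on the short arm of human chromosome 7: HOXA2, HOXA3, HOXA4, HOXA5, HOXA6, HOXA7, HOXA9, HOXA10 and HOXA11. They were taken by symbol from a raw count table of 58302 gene IDs and are given in their order along the chromosome. All are protein-coding genes on the minus strand, and together they lie between HOXA2 (ENSG00000105996, GRCh38 chr7:27100354-27102811) and HOXA11 (ENSG00000005073, chr7:27181510-27185223). HOXA13 belongs to a second list, of neighbours and RNAs of the cluster.

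RNA was sequenced from TruSeq libraries of H9, a human embryonic stem cell line, that carries an mCherry reporter in SOX17 and a GFP reporter in RUNX1C, each in 1 allele. KO cells carry both reporters and a deletion of the part of RUNX1 that encodes its DNA-binding domain, and WT cells are the reporter line without it. The sources used here do not give the number of KO clones. In the mesoderm protocol, cells of both lines received BMP4 (20 ng/ml), activin A (7.5 ng/ml), VEGF, SCF and FGF2 up to day 4. The WNT pathway activator CHIR (3 µM) and the activin receptor inhibitor SB431542 (3 µM) were added between day 2 and day 4, and VEGF, SCF, FGF2 and IGF2 between day 4 and day 8. Unsorted KO and WT cells of day 0, 2 and 4 gave 4 libraries per group. Cells of day 7 and 12 were sorted as CD34+ and then by SOX17 reporter and CD43, a blood cell surface protein. Day 7 gave SOX17+CD43- cells (4 KO and 4 WT libraries) and SOX17-CD43- cells (3 KO and 4 WT). Day 12 gave SOX17+CD43- cells (4 KO and 4 WT), WT SOX17+CD43+ cells (2), WT SOX17-CD43+ cells (3) and 1 KO SOX17-CD43- library, which entered no test. In the endoderm protocol, WT cells received activin A with CHIR and PI-103 on the first day and activin A with DMH-1 after it, and were taken unsorted on day 0, 2, 4 and 7 (3 libraries each).

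HOX genes encode transcription factors with a homeodomain, and their order along a cluster matches the order in which they are used from head to tail in the embryo. In the early embryo the cluster opens in order along the chromosome as mesoderm leaves the primitive streak, under WNT, FGF and retinoic acid signals, with CDX factors among the known activators. In blood formation, HOXA genes, HOXA9 above all, are known for their part in the growth and self-renewal of stem and progenitor cells, and in mouse embryos the haematopoietic stem cells of the trunk arise from endothelium of the dorsal aorta. HOXA13 and HOXA11 are known for the patterning of the limb and the posterior body.

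Levels are RPKM, reads scaled to gene length and library size, which allow levels to be compared between genes, and tests were run on raw counts with edgeR's quasi-likelihood test. A gene counted as called where its p, adjusted by Benjamini and Hochberg across the fitted genes, was under 0.05. Libraries held 10366048 to 19081031 counts. RUNX1 counts include exons outside the deletion. RUNX1 lay at 1.74 to 2.64 RPKM in KO SOX17+ cells of day 7, against 5.6 to 9.47 in WT, and at 0.589 to 1.23 in KO SOX17+ cells of day 12, against 2.2 to 5.61 in WT. On day 4 the KO libraries (0.196 to 4.19) overlapped the WT libraries (1.73 to 4.4). The KO libraries of day 2 and 4 are named KO in their titles, while their genotype field does not list the deletion. The labelled cells had their markers. The 7 endothelial markers summed to 10500 to 11700 CPM (counts scaled to library size alone) in WT SOX17+ cells of day 7. The 6 blood markers summed to 967 to 1270 CPM in WT SOX17-CD43+ cells of day 12. CD34 is among these endothelial markers, and SPN, the gene of CD43, among the blood markers. The cells were sorted on both proteins, so these sums were in part set by the sort. The 6 endoderm markers summed to 1870 to 2120 CPM in endoderm of day 7, and the 5 pluripotency markers to 2420 to 3130 CPM in WT cells of day 0. Nothing says that libraries of a group came from separate cultures, so p-values measure the spread between these libraries, which may be technical. In bulk samples, fewer cells of a type and less RNA per cell cannot be told apart. Whether counting used the strand is not given, so reads of a member and of an antisense partner over the same bases cannot be told apart. This touches HOXA7 most, as 62.5% of its exon bases lie opposite exons of HOXA-AS3, then HOXA6 (39.3%) and HOXA11 (31.1%, opposite HOXA11-AS). Smaller shares hold for HOXA10 (16.4%), HOXA4 (16.3%), HOXA3 (15.4%) and HOXA9 (13.9%), and HOXA2 and HOXA5 are not touched. On the same strand, HOXA4 shares 31% and HOXA9 15.9% of its exon bases with other annotated genes.

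The stretch just upstream of the starts is shown for 4 members to set their sequence beside the levels, since CDX factors are known activators of HOX clusters. RefSeq (GRCh38.p14) listed upstream windows for 8 of the 9 members, 15 windows in all, and none for HOXA5. Windows of 250 bases before each start were searched on both strands for the CDX motifs TTTATG and TTTATT, the TCF/LEF motif CTTTGAT and the RUNX motif TGTGGT. Capitals mark a CDX motif, as TTTATG or TTTATT where it lies on the gene's strand and as CATAAA or AATAAA where it lies on the other strand. The windows of HOXA2, HOXA3 and HOXA9 hold such motifs, and the window of HOXA11 holds none. Those of HOXA4, HOXA6, HOXA7 and HOXA10, not shown, hold none either. HOXA3 has several annotated starts, and the most upstream one is shown.
HOXA2, chr7:27102684-27102933, minus strand: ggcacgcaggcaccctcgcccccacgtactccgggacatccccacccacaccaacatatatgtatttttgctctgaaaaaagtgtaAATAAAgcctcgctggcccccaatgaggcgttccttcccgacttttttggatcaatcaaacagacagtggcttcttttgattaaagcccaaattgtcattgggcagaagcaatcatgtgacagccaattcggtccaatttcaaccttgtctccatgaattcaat
HOXA3, chr7:27152584-27152833, minus strand: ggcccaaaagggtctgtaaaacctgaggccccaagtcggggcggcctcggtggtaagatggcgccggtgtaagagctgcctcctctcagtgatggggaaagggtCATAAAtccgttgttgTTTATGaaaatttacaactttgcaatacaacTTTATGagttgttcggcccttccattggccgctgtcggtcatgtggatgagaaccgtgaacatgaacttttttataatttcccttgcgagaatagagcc
HOXA9, chr7:27165538-27165787, minus strand: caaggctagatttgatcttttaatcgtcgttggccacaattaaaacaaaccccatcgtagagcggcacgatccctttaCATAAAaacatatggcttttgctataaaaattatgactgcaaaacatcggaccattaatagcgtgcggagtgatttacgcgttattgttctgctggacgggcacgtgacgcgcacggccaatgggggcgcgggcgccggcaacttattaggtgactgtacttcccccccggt
HOXA11, chr7:27185233-27185482, minus strand: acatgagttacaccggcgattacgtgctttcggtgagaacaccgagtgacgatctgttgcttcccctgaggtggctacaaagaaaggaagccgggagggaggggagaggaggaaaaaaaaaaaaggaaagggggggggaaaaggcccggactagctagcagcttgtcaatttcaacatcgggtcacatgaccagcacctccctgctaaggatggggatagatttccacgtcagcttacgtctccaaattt

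Over all windows of the members, TTTATG stood in 2 of 15 (HOXA3 and HOXA9) and in 9.64% of the 35116 RefSeq windows of the same length. TTTATT stood in 5 of 15 (HOXA2 and 4 other starts of HOXA3) and in 16% of all windows. CTTTGAT stood in 0 of 15 windows and in 2.26% of all, and TGTGGT in 0 of 15 and in 11% of all. These are matches of letters within short windows and say nothing about binding of a factor.

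**Figure D1:**
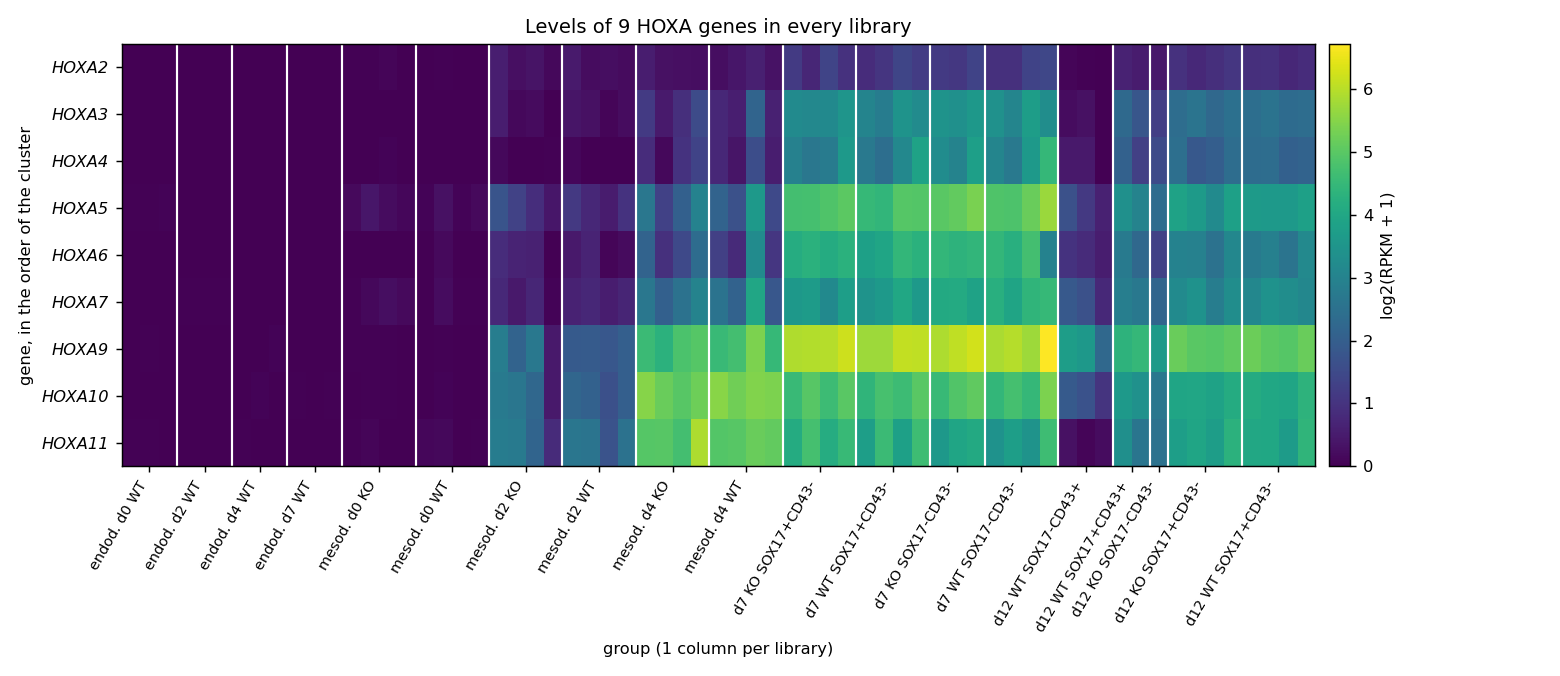
Level of each member (down the page, in chromosomal order) in every library (1 column each, 19 groups parted by white lines), as colour on a log2(RPKM + 1) scale. The endoderm columns and both day 0 mesoderm groups are near 0 for every member, and the SOX17-CD43+ columns of day 12 lie below the SOX17+ columns of that day for all 9.

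Undifferentiated cells had almost no HOXA RNA. The 4 KO libraries of day 0 held 47 counts over all 9 members together, and the 4 WT libraries 30. In WT cells HOXA3 and HOXA4 were at 0 in every library, HOXA9 had 1 count in all, and HOXA5, the highest member on day 0, reached 0.0383 to 0.224 RPKM.

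On day 2 of the mesoderm protocol, HOXA9, HOXA10 and HOXA11 were the highest members. HOXA9, a regulator of blood progenitor growth, reached 2.72, 2.78, 2.51 and 3.11 RPKM in WT libraries 1 to 4 of day 2, against a single count in the 4 WT libraries of day 0. That is a ratio of 490 with a counting interval of 87.4 to 19400 (95%, counting error only). HOXA10, its neighbour with known roles in blood and uterus, reached 3.63, 3.22, 2.12 and 3.10 RPKM, 328 times the level of day 0 (90.3 to 2710). HOXA11, known for limb and kidney patterning, reached 5.25, 4.96, 2.27 and 4.81 RPKM, with a log2 fold change of 6.25 ± 0.69 (standard error, adjusted p = 1.43e-07, edgeR). All 4 libraries of day 2 lay above all 4 of day 0 for these members, as they did for 21.2% of all genes tested.

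The other members stayed near or below 1 RPKM on day 2. HOXA5, known for patterning of trunk and lung, had 1.16, 0.682, 0.418 and 0.993 RPKM in WT libraries, 2.92 ± 0.87 above day 0 on the log2 scale (adjusted p = 0.00836). HOXA7 had 0.559, 0.684, 0.46 and 0.625 RPKM, 3.41 ± 0.86 above day 0 (adjusted p = 0.00237). HOXA3, known for pharyngeal arch and neck structures, had 0.0736 to 0.313 RPKM and was at least 16.8-fold higher than on day 0, where it had 0 counts (bound of 3 counts over the group). HOXA2, a hindbrain and second arch gene, was 34.4 times higher than on day 0 (5.68 to 1410). HOXA4 had 2 counts in the 4 libraries and HOXA6 18, and neither passed the test. By limma on the log2 RPKM values, HOXA3, HOXA5 and HOXA7 were not called (adjusted p = 0.432, 0.136 and 0.11). Without WT replicate 2 of day 0 the edgeR log2 fold changes of HOXA5 and HOXA7 were 3.52 and 4.70. In all, 7 of 9 members were higher on day 2 in WT cells and 0 lower, where 22.2% of all genes tested were higher (45.1% changed either way). The filter on low counts was set over all 24 unsorted mesoderm libraries. Members near 0 on day 0 could thus pass it through later groups, those of day 4 included. That favoured members that rise later, so little is read from the count, though HOXA4 and HOXA6 passed and were not called. With day 0 and day 2 fitted alone, HOXA2, HOXA3 and HOXA5 did not pass the filter and were not tested.

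In KO cells of day 2 HOXA9, HOXA10 and HOXA11 were again the highest members, with 1 library apart. HOXA9 had 6.14, 3.39, 5.40 and 0.368 RPKM in KO libraries 1 to 4, HOXA10 5.77, 5.24, 3.70 and 0.367, and HOXA11 6.08, 5.86, 3.51 and 0.778. Replicate 4 was the lowest library for all 9 members except HOXA4. In that library HOXA13 was also lowest (2.7 RPKM, against 5.9 to 7.04 in the other KO libraries), as was CDX4 (17.9, against 34.9 to 49), while CDX2 (17.2) lay within the others (12.2 to 26.3). Its 6 streak and mesoderm markers summed to 2880 CPM, against 3470 to 3570 in the others, and their part in the result was not tested. HOXA9 was 213 times its day 0 level (72.4 to 1030), HOXA10 255 times (87.1 to 1240) and HOXA11 172 times (58.5 to 836). In KO cells 8 of 9 members were higher than on day 0, all but HOXA4, where 21.6% of all genes were higher (43.3% changed). Among them HOXA7 (log2 fold change 1.94 ± 0.76, adjusted p = 0.044) was not called when any of 6 single libraries was left out (adjusted p 0.0567 to 0.139). HOXA3 was not called without KO replicate 1 of day 2 (adjusted p = 0.0982). By limma HOXA3, HOXA5, HOXA6 and HOXA7 were not called (adjusted p = 0.531, 0.0707, 0.259 and 0.356). The limit of the filter given for WT cells holds here as well, so little is read from the count of 8. With day 0 and day 2 of KO cells fitted alone, HOXA2, HOXA3, HOXA5, HOXA6 and HOXA7 did not pass the filter and were not tested.

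By day 4 the HOXA9 to HOXA11 end had risen further, and HOXA3 to HOXA7 were higher as well. HOXA10 had 44.7, 37, 42.5 and 41 RPKM in WT libraries of day 4, 3.78 ± 0.43 above day 2 on the log2 scale (adjusted p = 2.84e-07). HOXA11 had 29, 30.1, 35.2 and 33.1 RPKM (2.88 ± 0.41, adjusted p = 4.97e-06). HOXA9 had 22.5, 24.9, 40.8 and 21.8 RPKM (3.31 ± 0.44, adjusted p = 2.16e-06). All libraries of day 4 lay above all of day 2 for these members, as they did for 24% of all genes tested. HOXA10 had the highest mean of the members in KO and WT cells of day 4, though in KO cells HOXA10 (36.6 ± 5.5) and HOXA11 (35.8 ± 15) did not differ beyond their spread.

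Between HOXA3 and HOXA7 the 4 WT libraries of day 4 were uneven. HOXA7 had 4.84, 3.35, 14.6 and 2.57 RPKM (log2 fold change over day 2 3.45 ± 0.57, adjusted p = 2.89e-05), and HOXA5 had 3.43, 2.19, 11.2 and 1.78 (2.51 ± 0.62, adjusted p = 0.00172). HOXA6 had 1.42, 0.751, 8.48 and 1.10 RPKM (3.30 ± 0.89, adjusted p = 0.00461), and HOXA3 0.666, 0.476, 3.45 and 0.524 (2.69 ± 0.78, adjusted p = 0.00739). Replicate 3 was the highest WT library for each of them. HOXA4 had 0.311 to 2.00 RPKM, 36.5 times its level of day 2 (9.85 to 306). HOXA2, at 0.199 to 0.506 RPKM, did not pass the test (0.46 ± 0.48, adjusted p = 0.438). In all, 8 of 9 members were higher on day 4 than on day 2 in WT cells, where 25.9% of all genes were higher (51.4% changed). The members' median log2 fold change was 3.3 and that of all genes -0.00609.

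Without replicate 3 of day 4, HOXA3 (log2 fold change 1.47, adjusted p = 0.0802) and HOXA6 (1.85, adjusted p = 0.0528) were no longer called, while HOXA5 (1.58, adjusted p = 0.0189) and HOXA7 (2.61, adjusted p = 9.91e-05) were called at smaller values. In replicate 3 CDX2 lay at 15.8 RPKM, against 1.26 to 1.86 in the other WT libraries. HOXA13 was lower in it (29.9, against 49.3 to 61.6), as was the sum of the 7 mesenchyme and smooth muscle markers (857 CPM, against 3130 to 5670). A KO library of day 4, replicate 4, had a like set of values: CDX2 at 13.6 RPKM (1.16 to 3.74 in the other KO libraries) and mesenchyme markers at 1420 CPM (2170 to 6660). That KO library was the highest of its group for HOXA3, HOXA4, HOXA5, HOXA6, HOXA7, HOXA9 and HOXA11. The part of these values in the result was not tested.

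In KO cells 8 of 9 members were higher on day 4 than on day 2, again all but HOXA2, where 26% of all genes were higher (50.5% changed). HOXA10 had 43.9, 35.3, 30.6 and 36.6 RPKM (log2 fold change 3.30 ± 0.42, adjusted p = 1.2e-06), HOXA11 29.7, 30.5, 25 and 58 (3.16 ± 0.41, adjusted p = 1.61e-06) and HOXA9 23, 18.9, 27.2 and 29.8 (2.71 ± 0.42, adjusted p = 1.72e-05). HOXA7, at 5.31, 3.14, 4.78 and 6.97 RPKM, was 3.51 ± 0.57 above day 2 (adjusted p = 2.66e-05). HOXA5 (1.76 ± 0.58, adjusted p = 0.0152) and HOXA6 (2.42 ± 0.82, adjusted p = 0.0193) were not called without replicate 4 of day 2 (adjusted p = 0.0518 and 0.0508) or of day 4 (0.0532 and 0.0505).

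**Figure D2:**
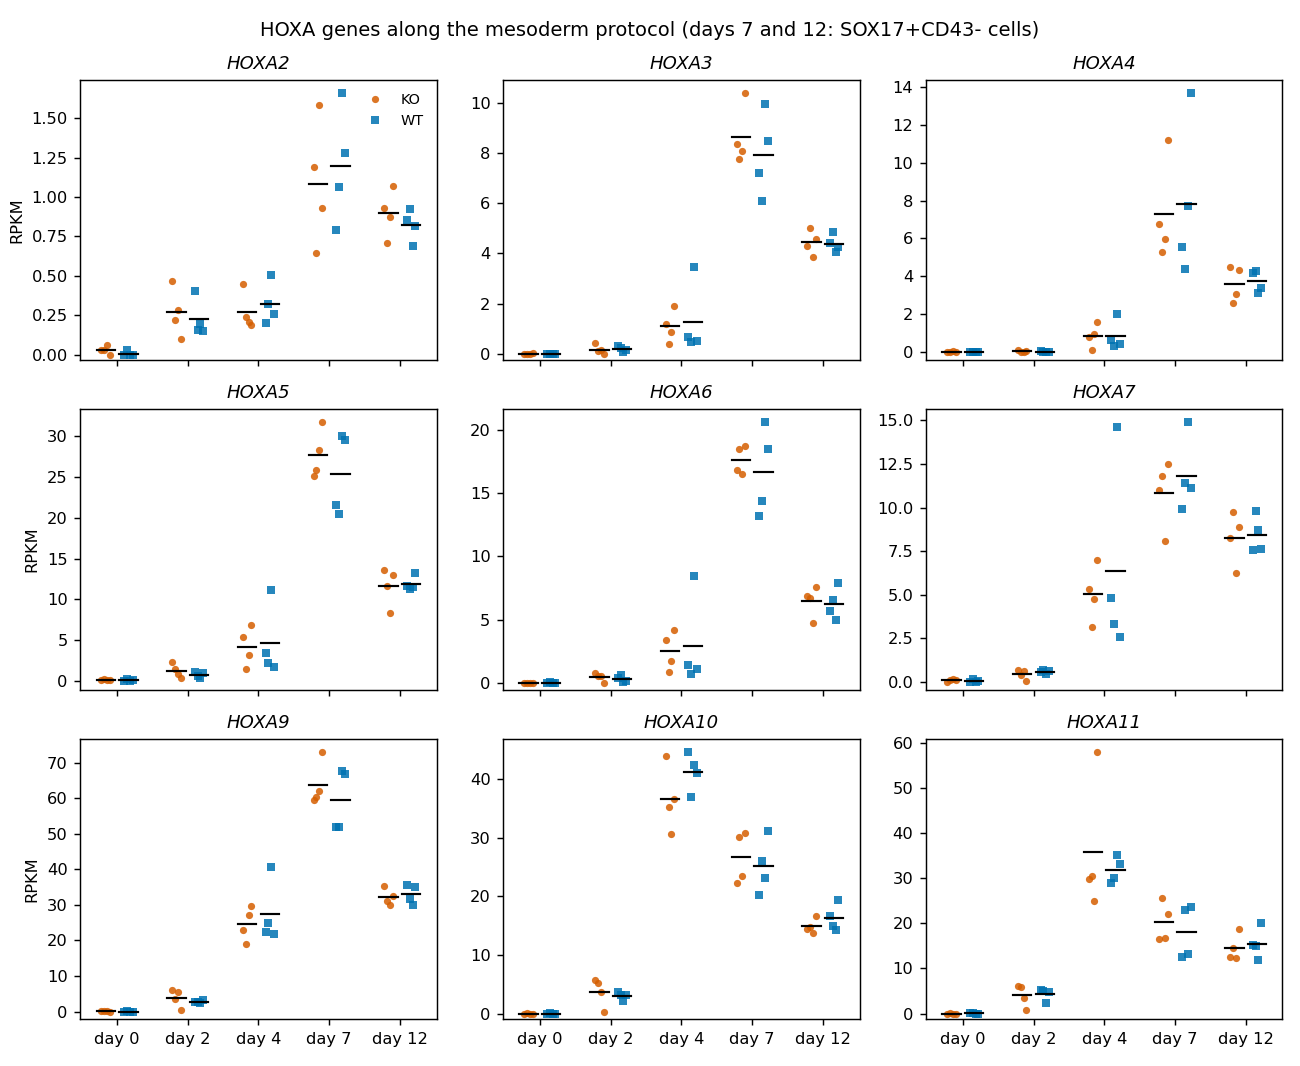
RPKM of each member (1 panel each, with its own linear scale) by library over the days of the mesoderm protocol, KO in orange circles and WT in blue squares, with group means as bars; day 7 and 12 are SOX17+CD43- cells. The means of HOXA10 and HOXA11 are highest on day 4 and those of the other members on day 7.

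Endothelial cells of day 7 had another balance of members than unsorted cells of day 4. HOXA9 was the highest member, at 52, 52, 67.6 and 66.8 RPKM in WT SOX17+ libraries of day 7, 1.13 ± 0.21 above day 4 on the log2 scale (adjusted p = 0.00086). HOXA5 followed with 21.6, 20.5, 30 and 29.5 RPKM (2.44 ± 0.50, adjusted p = 0.00173). All libraries of day 7 lay above all of day 4 for both, as they did for 29.2% of all genes tested.

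The members on the HOXA2 to HOXA6 side rose most. HOXA4 had 5.53, 4.4, 7.71 and 13.7 RPKM (3.18 ± 0.55, adjusted p = 0.000595), HOXA3 7.2, 6.08, 9.96 and 8.47 (2.62 ± 0.57, adjusted p = 0.00251), HOXA6 13.2, 14.4, 20.6 and 18.5 (2.49 ± 0.63, adjusted p = 0.00601) and HOXA2 0.791, 1.06, 1.66 and 1.28 (1.90 ± 0.34, adjusted p = 0.000696). HOXA10 and HOXA11 moved the other way. HOXA10 had 20.2, 26, 23.2 and 31.1 RPKM on day 7 (-0.70 ± 0.13, adjusted p = 0.000915), and HOXA11 12.6, 23, 13.2 and 23.6 (-0.80 ± 0.21, adjusted p = 0.00682). All libraries of day 7 lay below all of day 4 for HOXA10 and HOXA11, as they did for 28.9% of all genes tested. HOXA7 had 9.93, 11.4, 14.9 and 11.1 RPKM and was not called (0.90 ± 0.47, adjusted p = 0.114), but it was called without replicate 3 of day 4 (1.73, adjusted p = 3.01e-05). Without that library the log2 fold changes were 4.04 for HOXA4, 3.94 for HOXA6, 3.84 for HOXA3 and 3.36 for HOXA5. The antisense RNAs HOXA-AS2 (4.42 ± 0.23) and HOXA-AS3 (2.35 ± 0.2) were higher on day 7 as well in that setting. HOXA-AS3 lies opposite part of the exons of HOXA3, HOXA4, HOXA6 and, most of all, HOXA7 (62.5% of its exon bases). HOXA-AS2 lies opposite part of HOXA3 and HOXA4. The part of their reads in these values was not tested.

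In all, 6 members were higher and 2 lower on day 7, where 31.7% of all genes tested were higher and 31.1% lower (62.8% changed). The members' median log2 fold change was 1.9 and that of all genes -0.0248. Day and sort cannot be told apart here, since day 4 was unsorted and day 7 was sorted. Between these groups the sum of the 7 mesenchyme markers was 193 to 433 CPM on day 7 and 857 to 5670 CPM on day 4, and that of the 7 endothelial markers 10500 to 11700 CPM on day 7 and 1450 to 2180 on day 4.

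Shares of the members' summed RPKM show the same turn. HOXA9 to HOXA11 made up 82.9% ± 2.24 (SD, n = 4) of the sum in WT cells of day 2, 87.6% ± 8.78 (n = 4) on day 4 and 59.4% ± 3.48 (n = 4) in SOX17+ cells of day 7. The lowest WT library of day 4 (74.6%) lay above the highest of day 7 (63.6%). HOXA3 to HOXA7 made up 15.3% ± 2.1, 12.2% ± 8.76 and 39.9% ± 3.39 at the same stages. The sum itself was 12.3 ± 2.84, 117 ± 28 and 174 ± 27.6 RPKM. The ratio of HOXA9 to HOXA10 was 0.691 ± 0.189 in KO cells of day 4 and 0.667 ± 0.209 in WT cells (n = 4 each). On day 7 it was 2.42 ± 0.31 in KO SOX17+ cells and 2.41 ± 0.416 in WT SOX17+ cells (n = 4 each).

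**Figure D3:**
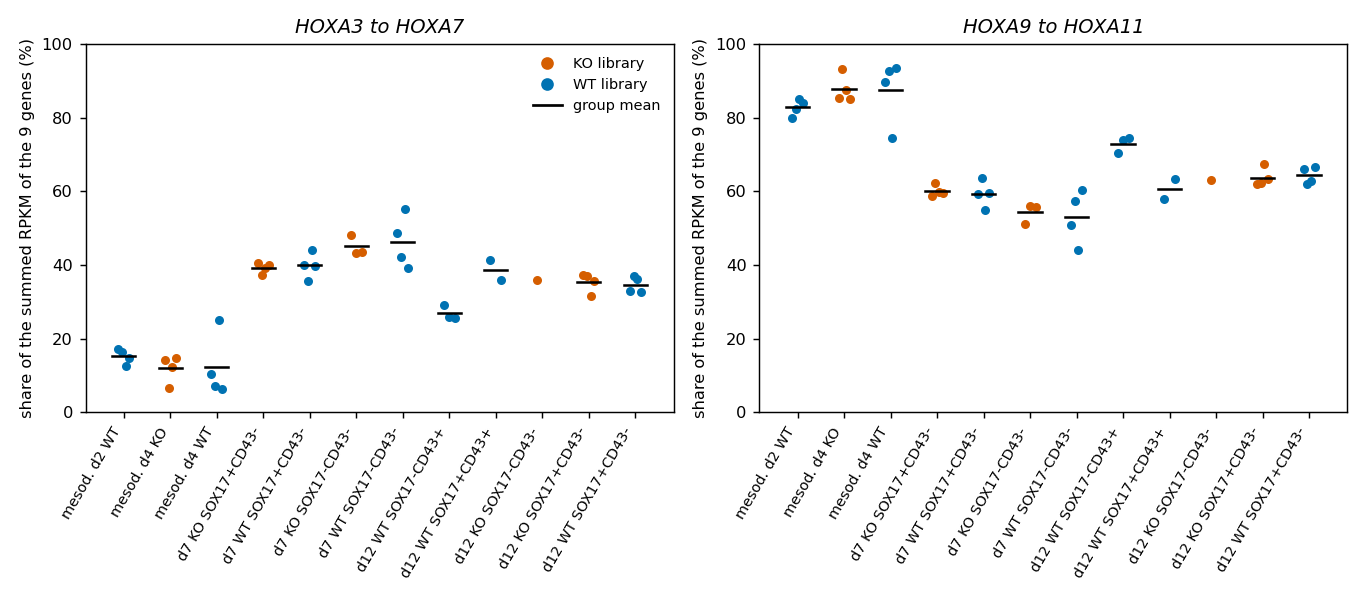
Percent of the 9 members' summed RPKM taken by HOXA3 to HOXA7 (left) and by HOXA9 to HOXA11 (right), 1 point per library and a bar for the group mean. Groups in which any library had few member counts are left out. KO cells of day 2 are among them, for a library with 85 counts. HOXA9 to HOXA11 average 87.6% in WT cells of day 4, 59.4% in WT SOX17+ cells of day 7 and 72.9% in SOX17-CD43+ cells of day 12.

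Both endothelial fractions of day 7 had close HOXA levels. HOXA9 lay at 59.5 to 73.2 RPKM in KO SOX17+ libraries, against 58, 66.2 and 75.8 in KO SOX17- libraries. In WT cells it lay at 52 to 67.6 RPKM in SOX17+ libraries, against 57, 61, 52 and 104 in SOX17- libraries, so the ranges overlap in both. The library with 104 RPKM of HOXA9 was also the highest of its group for HOXA2, HOXA4, HOXA5, HOXA7, HOXA10 and HOXA11, while it had 6.81 RPKM of HOXA6, against 18 to 25.2 in the other WT SOX17- libraries. In WT cells HOXA7 had 9.93 to 14.9 RPKM in SOX17+ libraries and 14.2 to 21.5 in SOX17- libraries, with ranges that overlap and a difference short of the threshold (log2 fold change -0.64 ± 0.21, unadjusted p = 0.00461, adjusted p = 0.141). In KO cells HOXA7 had 11, 11.8, 8.07 and 12.5 RPKM in SOX17+ libraries and 15.8, 16.1 and 13.5 in SOX17- libraries, with no overlap (-0.46 ± 0.22, adjusted p = 0.601).

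HOXA6 did not overlap between the KO fractions either (16.5 to 18.7 RPKM in SOX17+ libraries and 19.3 to 20.9 in SOX17- libraries). HOXA11 had the opposite order in KO cells, with 16.6, 25.5, 16.7 and 22 RPKM in SOX17+ libraries and 11, 14.5 and 16 in SOX17- libraries, which do not overlap. In all, 3 of 9 members did not overlap between the KO fractions, and 12.6% of all genes tested. The log2 fold change of HOXA11 was 0.55 ± 0.28 (adjusted p = 0.659). With a block for neighbouring library numbers (runs in the titles), since libraries of 1 run deviate together here, it was 0.69 ± 0.17 (adjusted p = 0.0337). In WT cells the HOXA11 difference was 0.37 ± 0.25 (adjusted p = 0.645). Of 9 members, 0 were called between fractions in KO cells and 0 in WT cells, where 0.67% and 1.6% of all genes were called. At an unadjusted p under 0.05 there was 1 member in KO cells (HOXA7) and 2 in WT cells (HOXA5 and HOXA7), and DESeq2 and limma called 0 in both. The difference between fractions was not called different between KO and WT for any member (0 of 9, 0% of all genes, 240 genes at an unadjusted p under 0.05). The mesenchyme markers summed to 193 to 433 CPM in WT SOX17+ cells and 676 to 1250 CPM in WT SOX17- cells, and CDX2 averaged 0.459 and 0.916 RPKM in these fractions. Their part in the HOXA7 values was not tested.

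No member was called between KO and WT cells at any stage tested. HOXA9 lay at 59.5, 60.3, 62.1 and 73.2 RPKM in KO SOX17+ libraries of day 7, against 52, 52, 67.6 and 66.8 in WT, and at 35.4, 31, 29.9 and 32.6 in KO SOX17+ libraries of day 12, against 35.6, 31.6, 29.9 and 35.1 in WT. The groups overlapped for every member in all 6 comparisons of KO with WT. Of all genes tested, only 1.02% to 7.63% did not overlap in these comparisons, so overlap is not particular to the members.

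The precision differed by stage. In SOX17+ cells of day 12 the log2 fold changes of the 9 members ran between -0.13 and 0.13, with standard errors of 0.2 to 0.4. In SOX17+ cells of day 7 they ran between -0.13 and 0.18, and in SOX17- cells of day 7 between -0.28 and 0.2. On day 4 they ran between -0.32 and 0.18 and on day 2 between -0.38 and 0.68, with standard errors of 0.37 to 0.7 on day 4 and 0.4 to 1.63 on day 2. On day 0 too few counts were present to compare. Of all genes, 0.187% were called in SOX17+ cells of day 12, 0.0566% in SOX17+ cells of day 7, 0.0087% in SOX17- cells of day 7 and 0% on day 0, 2 and 4. By edgeR at an unadjusted p under 0.05 there were 146 genes on day 0, 973 on day 2 and 987 on day 4, with 0 members among them. In the sorted cells these were 860 and 1094 genes in SOX17+ and SOX17- cells of day 7 and 707 in SOX17+ cells of day 12, again with 0 members. DESeq2 and limma also called 0 members in all 6 comparisons. The KO effect on day 12 minus that on day 7 was between -0.27 and 0.26 (0 of 9 called, 0.00435% of all genes). A p that misses the threshold does not show that levels are equal.

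All 9 members had lower group means in WT SOX17+CD43- endothelial cells of day 12 than of day 7, and 5 were called. HOXA6 had 5.71, 6.55, 4.95 and 7.87 RPKM in WT SOX17+CD43- libraries of day 12, against 13.2, 14.4, 20.6 and 18.5 on day 7 (log2 fold change -1.41 ± 0.25, adjusted p = 0.000181). HOXA5 had 11.7, 11.3, 11.5 and 13.2 RPKM, against 21.6, 20.5, 30 and 29.5 on day 7 (-1.09 ± 0.22, adjusted p = 0.000709). HOXA9 had 35.6, 31.6, 29.9 and 35.1 RPKM, against 52, 52, 67.6 and 66.8 (-0.85 ± 0.22, adjusted p = 0.0074). The libraries of both days did not overlap for 7 of 9 members, all but HOXA2 and HOXA11, and for 26% of all genes tested. HOXA3 fell as well (-0.85 ± 0.20, adjusted p = 0.00331), and HOXA10 at the edge of the threshold (-0.62 ± 0.21, adjusted p = 0.0385).

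HOXA10 was not called when any of 5 single libraries was left out (adjusted p 0.0669 to 0.139). HOXA4 missed the threshold (-1.06 ± 0.39, adjusted p = 0.0597) and passed it with the replicate number as a block (-0.91 ± 0.30, adjusted p = 0.0347). With the compared groups fitted alone HOXA4 passed as well (adjusted p = 0.022). HOXA7 averaged 8.43 RPKM on day 12 and 11.8 on day 7 and also missed the threshold (-0.49, adjusted p = 0.108). It passed with the compared groups fitted alone (-0.49 ± 0.14, adjusted p = 0.0214). HOXA11 had 15.2, 15, 11.9 and 20 RPKM on day 12 and 12.6, 23, 13.2 and 23.6 on day 7 (-0.22 ± 0.25, adjusted p = 0.62), which overlap. In all, 5 of 9 members were called lower and 0 higher, where 9.23% of all genes were lower (17.8% changed). In KO cells the same 5 members were called lower, where 7.29% of all genes were lower (13.3% changed). HOXA6 stood at -1.46 ± 0.25 (adjusted p = 0.000146), HOXA5 at -1.27 ± 0.22 (0.000161), HOXA9 at -1.0 ± 0.22 (0.00223), HOXA3 at -0.98 ± 0.20 (0.00103) and HOXA10 at -0.86 ± 0.21 (0.00528). Other marker sums moved between these days too: pluripotency markers to 33.8 to 79.4 CPM on day 12, against 310 to 354 on day 7, streak and mesoderm markers to 1500 to 2270, against 670 to 1060, and blood markers to 20.9 to 35, against 48.6 to 60. On both days only 1 of the 5 pluripotency markers and 3 of the 6 streak and mesoderm markers averaged at least 1 CPM. The pluripotency and streak sums thus rest on few genes and do not name a cell type. The part of all these sums in the result was not tested. HOXA9 to HOXA11 made up 64.5% ± 2.34 of the summed RPKM in WT SOX17+CD43- cells of day 12 and 59.4% ± 3.48 on day 7 (n = 4 each), with library ranges of 62% to 66.7% and 55% to 63.6%. CDX2 and CDX4 had 2 counts each in the 4 WT libraries of day 12, against 128 and 120 counts in those of day 7.

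The SOX17-CD43+ cells of day 12 had the lowest HOXA levels of the sorted cells. HOXA9 had 12.3, 11 and 3.85 RPKM in these libraries, against 35.6, 31.6, 29.9 and 35.1 in SOX17+CD43- endothelium (log2 fold change -1.82 ± 0.25, adjusted p = 4.85e-07). HOXA11 had 0.232, 0.0751 and 0.176 RPKM, against 15.2, 15, 11.9 and 20 (-6.52 ± 0.45, adjusted p = 1.01e-12). HOXA3 had 0.166, 0.228 and 0.0135 RPKM, against 4.42, 4.84, 4.06 and 4.26 (-4.96 ± 0.32, adjusted p = 2.79e-13). Between these extremes lay HOXA2 (-4.52 ± 0.54, on 4 counts in SOX17-CD43+ cells), HOXA4 (-3.86 ± 0.62), HOXA5 (-3.16 ± 0.29), HOXA6 (-3.05 ± 0.36), HOXA10 (-2.99 ± 0.26) and HOXA7 (-2.15 ± 0.26), and the highest adjusted p among them was 4.47e-06 (HOXA4).

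All 9 members were called lower, where 33.9% of all genes were lower (66.2% changed). The filter on low counts was set over all 28 replicated sorted libraries. Members low in SOX17-CD43+ cells, such as HOXA2 (4 counts) and HOXA11 (19 counts), could thus pass it through the groups where they are high. That favoured members that are lower in these cells, so little is read from the count of 9. Libraries did not overlap for any of the 9, nor for 67.6% of all genes tested. The members' median log2 fold change was -3.16 and that of all genes -0.0227. The members did not fall alike. By its estimate HOXA9 fell least, but its standard error overlaps that of HOXA7, and members were not tested against each other. HOXA9 alone made up 58.2% ± 2.49 (n = 3) of the summed RPKM in SOX17-CD43+ cells, against 32.9% ± 1.62 (n = 4) in SOX17+CD43- cells. HOXA11 made up 1.36% ± 1.12, against 15.3% ± 1.91. The sum was 15.5 ± 7.78 RPKM, against 100 ± 9.3, and the ratio of HOXA9 to HOXA10 was 4.41 ± 0.586, against 2.04 ± 0.153. Library ranges of each of these values did not overlap.

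Replicate 3 of the SOX17-CD43+ cells was the lowest of its group for every member except HOXA11. In it the 7 endothelial markers summed to 331 CPM, against up to 978 CPM in the others and 12300 to 14800 CPM in SOX17+CD43- cells. Their part in the member values was not tested. Each of the 9 calls held when any single library was left out, though the log2 fold changes of HOXA2 and HOXA5 were -5.75 and -3.76 without replicate 1 of the SOX17-CD43+ cells, and that of HOXA3 -5.55 without replicate 2.

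**Figure D4:**
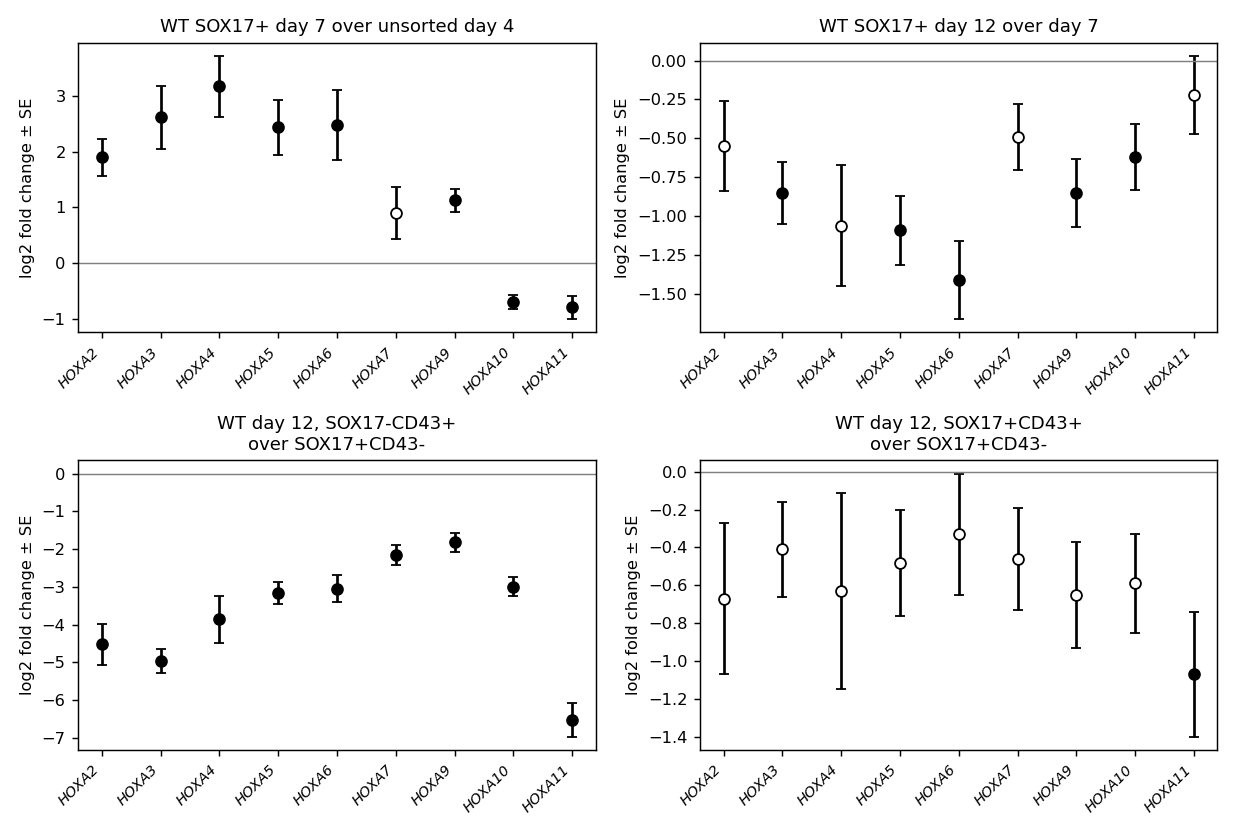
Log2 fold change of each member with its standard error (bars) in the comparison above each panel, from the edgeR fits, with filled points called and open points not called. On day 7 against day 4 the HOXA2 to HOXA6 side lies above 0 and HOXA10 and HOXA11 below 0, and in SOX17-CD43+ cells all 9 lie below 0.

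SOX17+CD43+ cells, which carry both the SOX17 reporter and the blood surface marker, had group means below those of SOX17+CD43- cells for all 9 members, but few differences passed the test. HOXA9 had 19.4 and 21 RPKM in the 2 libraries, against 29.9 to 35.6 in SOX17+CD43- cells (-0.65 ± 0.28, adjusted p = 0.0826). HOXA11 had 9.09 and 5.07 RPKM, against 11.9 to 20 (-1.07 ± 0.33, adjusted p = 0.0175), and without the second SOX17+CD43+ library its adjusted p was 0.228. HOXA5 had 9.4 and 6.98 RPKM and HOXA10 11.4 and 9.45. In all, 1 of 9 members was called lower, which is near the share among all genes (10.9% lower, 26.5% changed). Fitted with the compared groups alone, 4 members were called (HOXA5, HOXA9, HOXA10 and HOXA11). Libraries did not overlap for 7 members, all but HOXA4 and HOXA6, and for 47.9% of all genes tested. The endothelial markers summed to 7150 to 7260 CPM and the blood markers to 621 to 788 CPM in these libraries, and their part in the values was not tested.

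Between the CD43+ fractions, all 9 members were lower in SOX17-CD43+ than in SOX17+CD43+ cells, where 22.9% of all genes were lower (37.5% changed). Libraries did not overlap for any of the 9, nor for 58.1% of all genes tested. The log2 fold changes ran between -5.45 ± 0.49 for HOXA11 (adjusted p = 6.9e-10) and -1.17 ± 0.29 for HOXA9 (adjusted p = 0.00194). HOXA9 missed the threshold when these groups were fitted alone (adjusted p = 0.0664). Set against SOX17-CD43- endothelium of day 7, the SOX17-CD43+ cells of day 12 were lower in all 9 members as well, where 33% of all genes were lower (62.9% changed). There the log2 fold changes ran between -6.37 ± 0.45 for HOXA11 and -2.87 ± 0.26 for HOXA9. Both comparisons use the same SOX17-CD43+ libraries as the one with SOX17+CD43- cells. The limit of the filter given there holds for both.

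The single KO SOX17-CD43- library of day 12 had 11.6 RPKM of HOXA9, 5.35 of HOXA10, 4.78 of HOXA11, 4.2 of HOXA5 and 3.53 of HOXA7. These are below all KO SOX17+CD43- libraries of that day, where HOXA9 had 29.9 to 35.4 RPKM. Its mesenchyme markers summed to 994 CPM, against 239 to 392 CPM in KO SOX17+CD43- libraries, and with 1 library no test was made.

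Hardly any HOXA RNA was detected in endoderm at this depth. The 3 libraries of each endoderm day held 6, 3, 6 and 3 counts over all 9 members on day 0, 2, 4 and 7. HOXA9 had 0 counts in the 3 libraries of endoderm of day 7 and 12562 in the 4 WT SOX17+ endothelial libraries of day 7, and so was at least 3380-fold lower. The bounds of the other members at 0 counts were 55.6-fold for HOXA2, 641-fold for HOXA3, 255-fold for HOXA4, 813-fold for HOXA5, 402-fold for HOXA6, 536-fold for HOXA7 and 770-fold for HOXA11, and HOXA10 with 3 counts had a ratio of 0.000579 (0.000119 to 0.00169). All 9 were called lower in endoderm, where 36.3% of all genes were lower (71.6% changed), and the members passed the filter only through the endothelium, so they had to differ. The endothelium was sorted as CD34+SOX17+CD43- and the endoderm was unsorted, so protocol, sort and cell type cannot be told apart. No member passed the filter within the endoderm series, where 55.5%, 42.4% and 21.3% of all genes changed between day 0 and 2, day 2 and 4, and day 4 and 7.

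Set against the change in mesoderm, HOXA9 and HOXA11 were called lower in the endoderm protocol for day 2 minus day 0, and HOXA5, HOXA9 and HOXA11 for day 4 minus day 0. Among all genes 13.9% were lower for day 2 (29.5% changed) and 19.9% for day 4 (40.4% changed). The members passed the filter through the mesoderm libraries alone, with 0 to 3 counts per endoderm group, so they had to differ, and nothing is read from these calls.

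Set in order of their level over groups, HOXA9 was highest in the 4 endothelial groups of day 7, with means of 66.7 ± 8.88 RPKM in KO SOX17- cells (n = 3), 68.5 ± 24 in WT SOX17- cells, 63.8 ± 6.39 in KO SOX17+ cells and 59.6 ± 8.74 in WT SOX17+ cells (n = 4 each). These neighbours do not differ beyond their spread. Next came SOX17+CD43- cells of day 12 (32.2 ± 2.37 in KO and 33.1 ± 2.77 in WT), then unsorted cells of day 4 (24.7 ± 4.81 in KO and 27.5 ± 8.97 in WT), whose WT libraries overlap with those of WT cells of day 12, while KO libraries of day 4 reached at most 29.8. By their means SOX17+CD43+ cells followed (20.2 ± 1.12, n = 2), within the range of KO cells of day 4. SOX17-CD43+ cells (9.06 ± 4.56, n = 3) came next, and then unsorted cells of day 2 (3.83 ± 2.58 in KO and 2.78 ± 0.248 in WT), of which KO libraries reached 6.14, above the lowest SOX17-CD43+ library (3.85). HOXA10 and HOXA11 were instead highest in unsorted cells of day 4, at 36.6 ± 5.5 and 35.8 ± 15 RPKM in KO and 41.3 ± 3.27 and 31.8 ± 2.82 in WT. HOXA2 was the lowest member in all sorted groups and did not exceed 1.71 RPKM in any library.

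Levels of the members went together across groups. Over the 19 group means of log2(CPM + 1), Pearson's r between pairs of members ran between 0.76 (HOXA4 and HOXA11) and 0.99 (HOXA3 and HOXA5), and it was 0.98 for HOXA9 and HOXA10. The groups share genotypes, protocols and, in part, runs, and many points lie near 0, so these values are descriptions. Outside the HOXA cluster, the 8 genes of 17426 whose profile was most like the members' mean were HOXB7 (r = 0.969), F2RL2 (0.969), HOXB-AS1 (0.967), SLC18A1 (0.966), HOXB8 (0.964), PTCHD4 (0.962), HOXB3 (0.962) and GRK5 (0.960). HOXB7, HOXB8, HOXB3 and HOXB-AS1 belong to the HOXB cluster on another chromosome.

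Not all neighbours and RNAs of the cluster followed the members. Between day 2 and day 4, when every member but HOXA2 rose in WT cells, EVX1, which lies beyond HOXA13, fell (log2 fold change of day 4 over day 2 -2.48 ± 0.13, adjusted p = 4.74e-11), as did the non-coding HOTAIRM1 (-1.58 ± 0.57, adjusted p = 0.0272; -2.47 without WT replicate 3 of day 4) and SKAP2 (-0.94 ± 0.26, adjusted p = 0.00444). HOXA13 rose with HOXA9 to HOXA11 to 48.4 ± 13.4 RPKM on day 4 (3.2 ± 0.26, adjusted p = 2.25e-09) and was lower in SOX17+ cells of day 7 (11.9 RPKM, -2.0 ± 0.23, adjusted p = 3.9e-05). Of the 10 neighbours and RNAs of the cluster, 10 were higher on day 2 than on day 0 in WT cells (22.2% of all genes higher), and 6 higher and 4 lower on day 4 than on day 2 (25.9% higher, 51.4% changed). On day 7 against day 4, 2 were higher and 6 lower (31.7% higher and 31.1% lower among all genes). In SOX17-CD43+ cells 9 were lower than in SOX17+CD43- cells (33.9% of all genes lower), with HOXA13 at -5.96 ± 0.42 (adjusted p = 1.08e-12), and SKAP2 stood at 0.02 ± 0.14 (adjusted p = 0.911). None of the 10 was called between KO and WT in any of the 6 comparisons.

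The microRNA gene MIR196B lies within HOXA9 on the same strand. Its mature product miR-196b-5p, at chr7:27169528-27169549 on the minus strand of GRCh38.p14, is shown for its known pairing with HOX transcripts, with its seed (bases 2 to 8) in capitals.
hsa-miR-196b-5p: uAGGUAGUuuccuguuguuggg

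The mature RNA was not measured by these libraries. Counts over the hairpin gene were 0, 5 and 15 in the 4 WT libraries of day 0, 2 and 4, 93 in WT SOX17+ cells of day 7, 22 in WT SOX17+CD43- cells of day 12 and 4 in the 3 SOX17-CD43+ libraries, and 0 in endoderm of every day. The genes overlap on 1 strand, so reads of the hairpin and of HOXA9 transcripts cannot be told apart.

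CDX genes, which encode homeodomain activators of HOX clusters, had their own order in time. On day 2 CDX1, CDX2 and CDX4 averaged 28.3, 18.8 and 33 RPKM in WT cells, and 3 of 3 were higher than on day 0. On day 4 CDX1 averaged 1.08 RPKM (log2 fold change over day 2 -4.68 ± 0.64, adjusted p = 2.93e-06) and CDX2 5.04 (-1.88 ± 0.74, adjusted p = 0.0368), while CDX4 averaged 28.7 (-0.20 ± 0.40, adjusted p = 0.7). The CDX2 mean was carried by WT replicate 3 (15.8 RPKM, against 1.26 to 1.86 in the others), without which its log2 fold change was -3.69 ± 0.68 (adjusted p = 0.00012), that of CDX1 -5.77 ± 0.67 and that of CDX4 -0.71 ± 0.39 (adjusted p = 0.131). On day 7 all 3 were lower than on day 4, with CDX4 at 1.16 RPKM in WT SOX17+ cells (-4.62 ± 0.52, adjusted p = 3.12e-05); CDX2 was at -3.47 ± 0.90, and at -1.68 ± 0.31 without replicate 3 of day 4. In endoderm CDX4 averaged 0.313 RPKM on day 2 and 1.92 on day 0, and CDX1 did not exceed a mean of 0.0725 RPKM on any day.

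HOX proteins bind DNA with PBX and MEIS partners. MEIS1, the partner best known beside HOXA9 in blood progenitors, averaged 0.321 RPKM in WT cells of day 2, 1.80 on day 4, 12.9 in SOX17+ cells of day 7 and 9.28 in SOX17+CD43- cells of day 12. Its log2 fold change of day 7 over day 4 was 2.86 ± 0.22 (adjusted p = 2.39e-06). MEIS3 and PKNOX2 fell between these groups (-4.78 ± 0.29, adjusted p = 7.26e-07, and -4.69 ± 0.18, adjusted p = 7.35e-08). Of the 9 partner genes, 6 were higher and 2 lower on day 2 than on day 0 in WT cells (45.1% of all genes changed), and 5 higher and 2 lower on day 4 than on day 2 (51.4% of all genes changed). Of 8 tested, 2 were higher and 3 lower on day 7 than on day 4, near the shares among all genes (31.7% higher and 31.1% lower). In SOX17-CD43+ cells 7 of 9 were lower than in SOX17+CD43- cells (33.9% of all genes lower), with MEIS1 at 5.57 RPKM, against 9.28 (-0.69 ± 0.15, adjusted p = 0.000303).

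Of chromatin factors that keep HOX genes on (8 genes around KMT2A), 2 were higher and 2 lower in WT cells of day 2 against day 0, where 45.1% of all genes changed, and 3 higher and 4 lower on day 4 against day 2, where 51.4% changed. Of 10 Polycomb genes, which keep HOX genes off, 4 were higher and 2 lower on day 2, and 1 was higher and 1 lower on day 4. In SOX17-CD43+ against SOX17+CD43- cells, where 66.2% of all genes changed, 2 activators were higher and 1 lower, and 3 Polycomb genes were higher and 3 lower. Nothing particular to either list is read from these counts. Between KO and WT none of either list was called in any of the 6 comparisons.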

How the data were processed

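The authors deposited raw counts per gene and a table of log2(RPKM + 1), scaled by trimmed means per the labels and back-transformed here to RPKM levels. Reads were trimmed with cutadapt 1.18 and counted with featureCounts on GRCh38, with R 3.2.2 also named, per the submitters' processing notes. For the aligner, and for the strand setting, no name is given in the sources used here. Gene IDs were matched by symbol to GENCODE 29, which named 58039 of 58302. Libraries held 10366048 to 19081031 counts, and 0 columns were of no sample. No replicate pair was a duplicate, since chi-square per gene was 4.47 to 88.2 over 85 pairs (over genes averaging 20 counts or more).

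Tests used edgeR 4.0.16 in R 4.3.3: the quasi-likelihood test with Benjamini-Hochberg adjusted p, TMM factors and filterByExpr (minimum count 10, minimum total 15). Separate fits covered unsorted mesoderm (24 libraries, 21612 genes), endoderm (12, 21542), both protocols together (21, 22664), the 8 replicated sorted groups (28, 22978), WT SOX17+ cells of day 7 with unsorted day 4 (8, 20028) and endoderm with endothelium of day 7 (7, 21165). The script was tested on simulated data. Alternatives were DESeq2 1.42.0, limma 3.58.1 on the deposited log2 values, DESeq2's size factors, no filter, the compared groups alone, each library left out, and a block for the replicate number or for runs of consecutive library numbers in the titles.

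Members and lists were chosen with earlier results of these data known, and lists were not adjusted on their own. Named were all 9 members, called list genes, and the 8 genes whose group means were most correlated with the members. Folds against 0 counts are bounds set at 3 counts over the group, and against 1 to 3 counts ratios with 95% intervals, which cover counting error only. Replicate numbers paired libraries (every pair's correlation of deviations over 0.1) for KO against WT on day 0 (0.232 to 0.774), KO against WT SOX17+ cells of day 7 (0.189 to 0.404) and WT SOX17+ cells of day 12 against day 7 (0.132 to 0.219). Runs paired them also for SOX17+ against SOX17- KO cells (0.135 to 0.318) and KO against WT SOX17- cells of day 7 (0.147 to 0.185).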

Additional observations from a re-analysis of the deposited data

Results flagged for a closer look

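Over 66 sets of a member's values in a group of 4 or more libraries, 5 held a library far from the others, where chance gives about 5% of sets. Of these 5, 3 are the same library, so they are not independent. WT replicate 3 of day 4 was far above its group for HOXA3 (3.45 RPKM, against 0.476 to 0.666 in the other libraries), HOXA6 (8.48, against 0.751 to 1.42) and HOXA9 (40.8, against 21.8 to 24.9). KO replicate 4 of day 4 was far above its group for HOXA11 (58 RPKM, against 25 to 30.5). WT replicate 3 of day 2 was far below its group for HOXA11 (2.27 RPKM, against 4.81 to 5.25).

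The change since day 0 differed between the endoderm and the mesoderm protocol, by the interaction term of edgeR's quasi-likelihood test, for HOXA9 (adjusted p = 0.0216) and HOXA11 (adjusted p = 0.00795) on day 2. On day 4 it differed for HOXA5 (adjusted p = 0.0285), HOXA9 (adjusted p = 0.0135) and HOXA11 (adjusted p = 0.00247). All 5 rest on 0 to 3 counts per endoderm group: these members passed the filter through mesoderm alone and had to differ, so nothing is read from these p-values. Without endoderm replicate 2 of day 0, both HOXA9 calls were lost and HOXA11 on day 2 had an adjusted p of 0.0528. Leaving out any of the 3 endoderm libraries of day 0 also lost HOXA5 (adjusted p 0.0655 to 0.0683).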

How the results depend on the processing

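Over 91 calls of a member in a comparison, 1225 of 1259 values under the alternatives kept direction and call, 34 lost the call and 0 turned direction. Members that a setting did not test are not among these values. Counts of members called were within 1.5 times the reported count in 384 of 400 settings. The exceptions follow, and beyond the filter on low counts their cause was not tested. For WT day 2 against day 0 (7 reported), limma called 4 and the compared groups alone 4. In that last fit HOXA2, HOXA3 and HOXA5 did not pass the filter and were not tested. For KO day 2 against day 0 (8), limma called 4 and the compared groups alone 3. There HOXA2, HOXA3, HOXA5, HOXA6 and HOXA7 did not pass the filter with the compared groups alone. For endoderm minus mesoderm on day 2 (2), DESeq2 called 5 and limma 4, and on day 4 (3) DESeq2 called 8 and limma 9. For SOX17+ against SOX17- cells of day 7 (0 in KO and WT), the run block called 1 in KO (HOXA11) and no filter 1 in WT (HOXA7, adjusted p = 0.0317). For SOX17+CD43+ against SOX17+CD43- cells (1), no filter called 3, DESeq2 2 and the compared groups alone 4.

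With each library left out, the count was 0 to 2 for endoderm minus mesoderm on day 2, 1 to 3 on day 4 and 0 to 1 for SOX17+CD43+ against SOX17+CD43- cells. Among neighbours, CDX and partner genes, day 4 WT replicate 3 was left out as an alternative chosen after seeing the data. Leaving out 1 of the 2 SOX17+CD43+ libraries assumes that the other varies like the other groups.

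With the replicate number as a block, 6 members were called for WT and for KO SOX17+ cells of day 12 against day 7, 9 for day 7 against day 4, and 2 for endoderm minus mesoderm on day 4. The block changed no other count. In KO cells, whose numbers did not pair libraries, the added gene was HOXA4 (-0.99 ± 0.30, adjusted p = 0.0251, edgeR). Depth limited day 0 and endoderm, where members had 0 to 17 counts per group.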
